A study of Homo sapiens with 27 samples.

Results

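The probes described here are named for mature human microRNAs (miRNAs) with high catalogue numbers, from miR-548 to miR-653 and from miR-657 to miR-663. Any letter, arm or star in the name was allowed. miR-572 was not included. A total of 123 probes, with 121 distinct names, met this rule among the 774 human miRNA probes of the array, and the choice used names only, no measured value. RNA came from OCI-AML3, a cell line derived from acute myeloid leukaemia, and each of the 27 arrays gave a log2 signal per probe. Untreated cells taken at 0 h were the control. The other cells received the chemokine SDF-1α at 100 ng/mL or the CXCR4 antagonist POL6326 at 250 nM and were taken after 1, 2, 4 or 8 h, which made 9 groups of 3 arrays, with 12 arrays for each treatment. All groups were the same line in the same medium, and no label tells if a group's 3 arrays stand for separate cultures. The p-values therefore measure only the spread between these arrays.

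miRNAs are short RNAs cut from hairpin precursors. They guide the silencing machinery to messenger RNAs, which they recognise mainly through the seed, bases 2 to 8 of the mature strand. Each hairpin can give a strand from its 5p arm and one from its 3p arm, and in older names a star marks the strand thought to be the minor one. Most miRNAs numbered in this range are known only from humans or other primates, and many were first found in tumour cells. The miR-548 family derives from short transposable elements of the primate genome. A smaller group, among them miR-551b, miR-574, miR-590, miR-615 and miR-652, is conserved among mammals. SDF-1α is the natural ligand of CXCR4, a receptor that holds leukaemia cells in the bone marrow.

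Mature sequences were found in RefSeq (GRCh38.p14) for 72 of the 123 probes, under 71 names, by exact match of the name. The other 51 probes had no such match, among them those of miR-560, miR-565 and miR-636, for which no sequence is shown. No pair of the 71 matched sequences shared a seed. The following 9 belong to members called in the comparison of POL6326 with SDF-1α over the 4 times, with the seed in capitals.
miR-556-5p: gAUGAGCUcauuguaauaugag
miR-557: gUUUGCACgggugggccuugucu
miR-590-5p: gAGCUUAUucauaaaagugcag
miR-602: gACACGGGcgacagcugcggccc
miR-608: aGGGGUGGuguugggacagcuccgu
miR-634: aACCAGCAccccaacuuuggac
miR-635: aCUUGGGCacugaaacaaugucc
miR-638: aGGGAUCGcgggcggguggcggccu
miR-662: uCCCACGUuguggcccagcag

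The seed of miR-590-5p is also that of miR-21-5p, a miRNA widely raised in tumours. The seed of miR-557 is also that of miR-507, and the seed of miR-635 that of miR-6774-5p. That of miR-608 is also carried by miR-4651, and the other 5 seeds belonged to no further human mature sequence of the table. miR-590-5p lies at chr7:74191213-74191234 on the plus strand, within the span of EIF4H, a gene for a translation initiation factor. miR-638 lies at chr19:10718419-10718443 on the plus strand, within DNM2, which encodes a dynamin. miR-608 lies at chr10:100975000-100975024 on the plus strand within SEMA4G, and miR-634 at chr17:66787132-66787153 on the plus strand within PRKCA, the gene of protein kinase C alpha. miR-556-5p lies at chr1:162342561-162342582 on the plus strand within NOS1AP. For miR-557 (chr1:168375584-168375606, plus strand) and miR-602 (chr9:137838434-137838456, plus strand) the table placed no other gene over the site. In all, 64 of the 71 matched names lay within the span of another annotated gene.

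For miR-579 and miR-652 the array's name gives no arm, and for miR-593 the arm of the starred strand is not named, so the hairpins are shown with both annotated mature strands in capitals.
miR-579: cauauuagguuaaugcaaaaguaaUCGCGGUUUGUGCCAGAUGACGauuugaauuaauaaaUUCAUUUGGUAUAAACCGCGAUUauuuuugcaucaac
miR-652: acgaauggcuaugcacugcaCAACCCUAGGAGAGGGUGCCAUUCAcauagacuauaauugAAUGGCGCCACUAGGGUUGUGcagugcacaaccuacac
miR-593: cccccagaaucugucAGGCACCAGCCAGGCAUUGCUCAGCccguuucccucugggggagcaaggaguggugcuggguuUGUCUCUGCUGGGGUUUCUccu

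miR-579 lies at chr5:32394378-32394475 on the minus strand within ZFR, miR-652 at chrX:110055329-110055426 on the plus strand within TMEM164, and miR-593 at chr7:128081861-128081960 on the plus strand within SND1. Which strand the miR-579 and miR-652 probes read is not given in the sources used here.

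On every array a block of probes shared 1 tied low value, its floor, which lay between 4.27 and 4.43 in log2 signal. The detection limit of an array is its lowest value above the floor. Of the 123 members, 26 were above the floor on all 27 arrays, 79 on 1 to 26 arrays and 18 on none. Over all 774 probes these counts were 174, 501 and 99, so 21.1% of the members and 22.5% of all probes were above the floor throughout. Of the 3321 member values, 1860 were at or under the floor.

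The number of members above the floor moved with treatment and time. The SDF-1α arrays at 1 h had 30, 31 and 32 members above the floor, the fewest of any group, and their detection limits were the highest, at 6.88 to 7.42. The POL6326 arrays at 4 h had 90, 81 and 75 members above the floor, with limits of 4.27 to 4.45. The controls had 89, 46 and 35, so control array 1 stood apart from the other two. The same held for the whole array: 28.8% of all probes and 25.2% of the members were above the floor with SDF-1α at 1 h, against 67.8% and 66.7% with POL6326 at 4 h. The part of this in the differences below was not tested beyond the alternatives named with them.

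**Figure D1:**
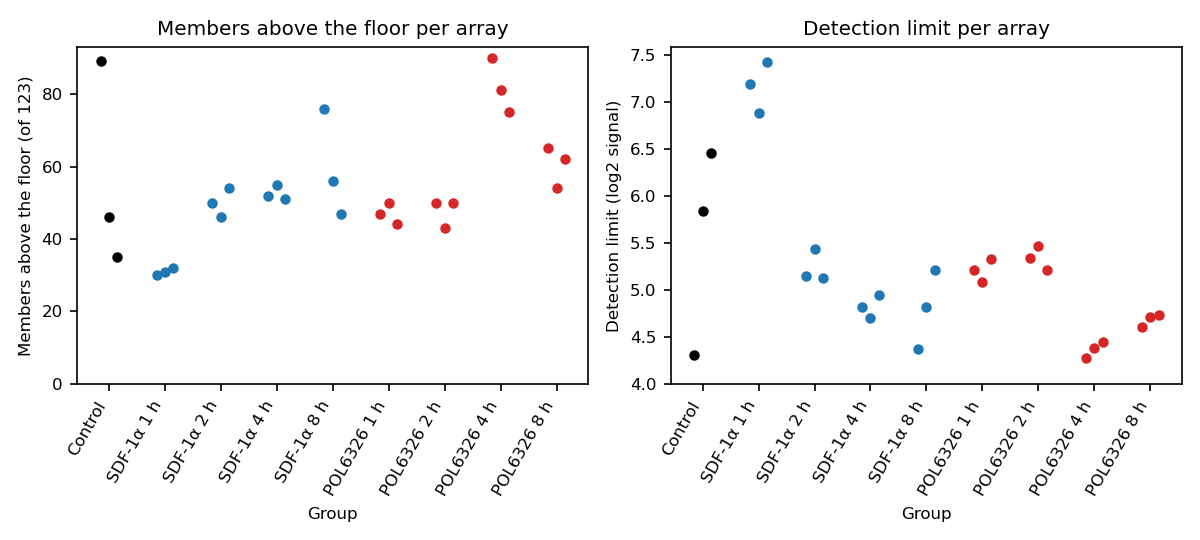
Members above the floor (left, of 123) and detection limit in log2 signal (right) for each of the 27 arrays, grouped by treatment and time; each point is 1 array, black for control, blue for SDF-1α and red for POL6326. SDF-1α at 1 h has the fewest members above the floor (30 to 32) and the highest limits, and POL6326 at 4 h the lowest limits.

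Probes differ in how well they hybridise, so a signal is not a measure of abundance and signals of different members are given as levels of their own probes. The member with the highest mean signal was miR-553, which was also the highest of all 774 probes, at 15.34. Its signal was at the table's maximum of 15.46 on all 12 SDF-1α arrays and lay between 14.39 and 15.46 with POL6326 and between 15.12 and 15.46 in the controls. At that ceiling a further rise cannot be seen. The precursor probe of miR-553 was above the floor on 13 of 27 arrays. The next means were those of miR-574-3p (13.15), a conserved miRNA within FAM114A1, then miR-634 (12.21), miR-618 (11.57), miR-565 (11.42), miR-636 (11.21), miR-629* (10.73), miR-566 (10.47), miR-593 (10.24) and miR-596 (9.98). The 26 members above the floor on all arrays had means from 7.17 to 15.34 with a median of 9.57, beside 9.17 for the 174 such probes of the whole array. The sequences of 3 of the brightest members follow, seed in capitals.
miR-553: aAAACGGUgagauuuuguuuu
miR-574-3p: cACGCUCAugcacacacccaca
miR-618: aAACUCUAcuuguccuucugagu

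The base composition of the members differed between the detection classes. The median share of G and C was 58.1% in the 12 sequences of members above the floor on all arrays, 47.6% in the 46 of members above it on some, and 43.5% in the 13 of members never above it. Across the 71 sequences the number of arrays above the floor and the GC share had a Pearson r of 0.38 and a Spearman rho of 0.35. Within the 12 members always above the floor the mean signal and the GC share had an r of -0.38 and a rho of -0.25. These values describe probes of 1 chip that share the 27 libraries and the hybridisation. miR-553, with 28.6% G and C, shows that the brightest probe was not a GC-rich one.

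**Figure D2:**
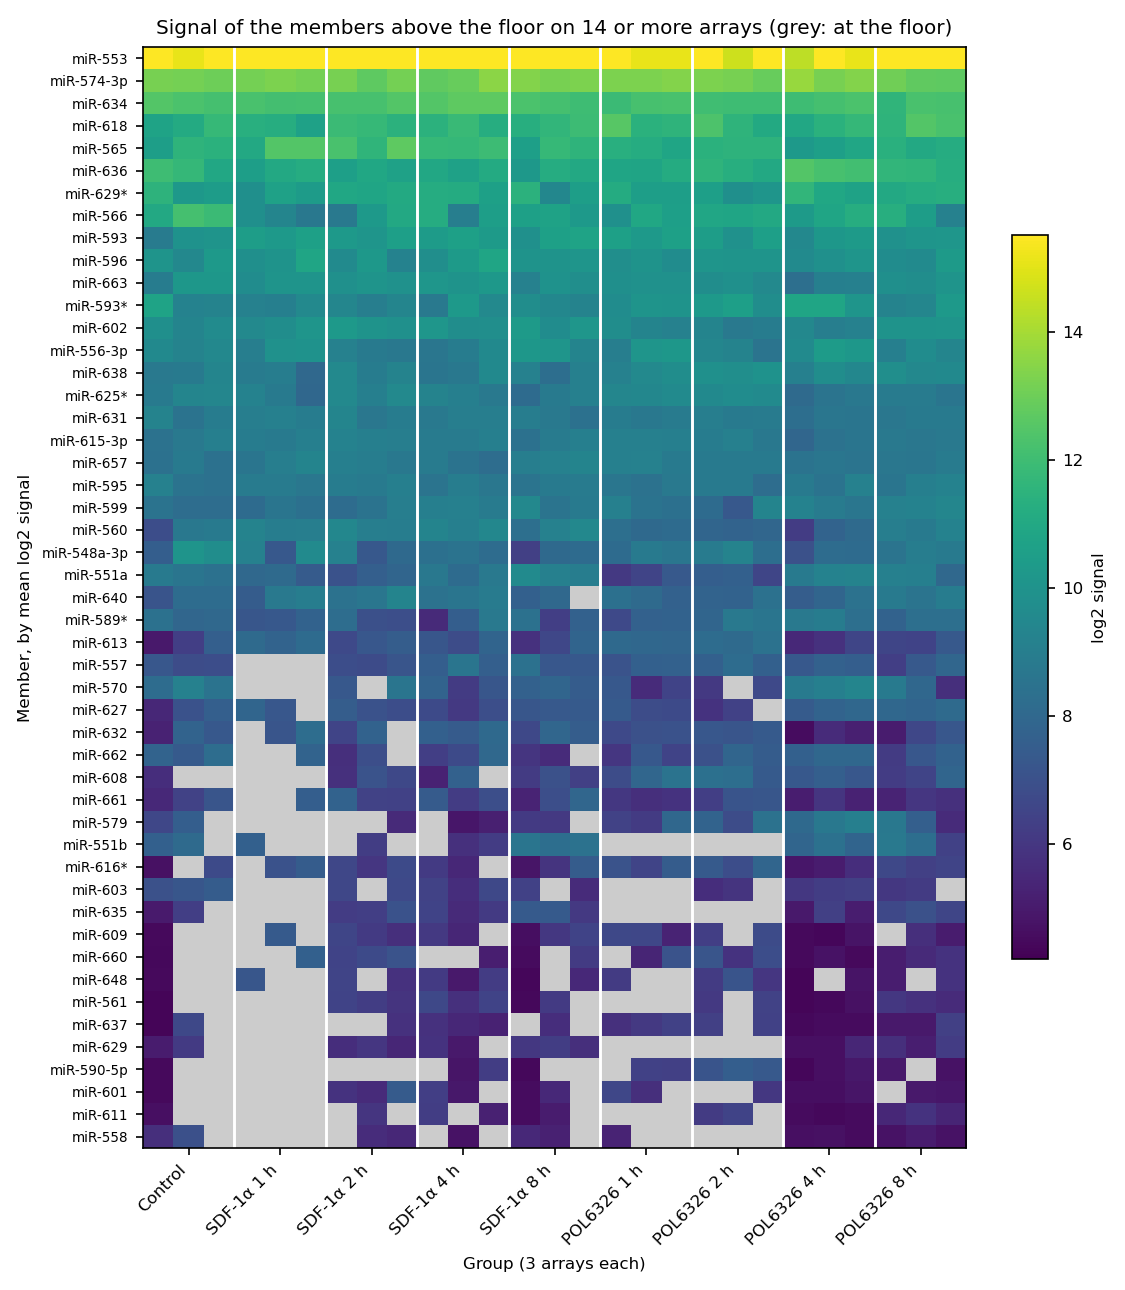
Log2 signal (colour) of the 49 members above the floor on 14 or more of the 27 arrays, 1 row per member in the order of the mean and 1 column per array, with white lines between groups; grey marks values at the floor. miR-553 is at or near the table's maximum of 15.46 in every column, and the lower rows are grey on most SDF-1α arrays at 1 h.

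The markers of the cell type were as follows. miR-223, the classical myeloid miRNA, had a mean of 14.94, miR-92a 14.37 and miR-155 11.17, each above the floor on all 27 arrays. miR-142-5p (8.33) and miR-16 (7.79) were also above the floor on all 27. miR-142-3p, an abundant blood-cell miRNA, was above the floor on 4 arrays and miR-181a on 10. Markers of other tissues were mixed. The liver miRNA miR-122 was above the floor on all 27 arrays (7.89). Of the muscle miRNAs, miR-206 was above it on 27 (6.57), miR-133b on 26, miR-1 on 9 and miR-133a on 5. Of the epithelial ones, miR-205 was above it on 27 (7.90), miR-141 on 21, miR-200b on 19, miR-200a on 5 and miR-200c on 3. The neuronal miR-124 was above it on 19, the red-cell miR-451 on 17 and miR-144 on 1, and of the stromal pair miR-145 was above it on 26 (7.39) and miR-143 on 0.

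POL6326 and SDF-1α were compared over the mean of the 4 times, which asks how blocking CXCR4 differs from activating it. Between them 15 of the 123 members (12.2%) passed an adjusted p of 0.05 in limma, beside 9.82% of all 774 probes. Higher with POL6326 were 9 members, with a background of 5.43%, and lower were 6, with a background of 4.39%. The median log2 difference was -0.03 for the members and -0.03 for all probes. The share of members called was thus close to that of the array as a whole. For none of the 774 probes did the 12 POL6326 values lie wholly apart from the 12 SDF-1α values.

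Scaling matters for the direction of the calls. With each array centred on its median, 10 members were higher and 43 lower, together 43.1% of the members beside 40.1% of all probes, and the median difference of all probes moved from -0.03 to -0.17. On 19 of the 27 arrays that median was itself the floor value. All 15 members were called in both versions and in the same direction.

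**Figure D3:**
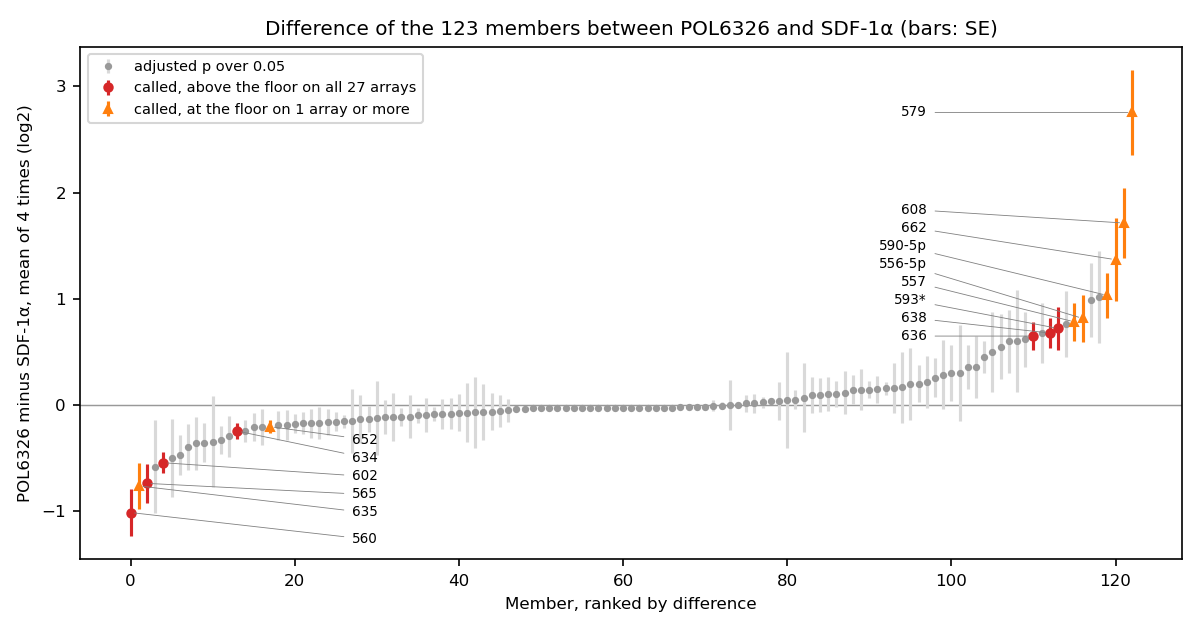
Log2 difference between POL6326 and SDF-1α over the mean of 4 times for the 123 members in rank order (points, with SE bars); grey points did not pass an adjusted p of 0.05, circles in colour passed and were above the floor on all 27 arrays, triangles passed and were at the floor on at least 1 array. The 4 largest rises, from 1.03 to 2.76, are all triangles.

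The largest rise was that of miR-579. With POL6326 its signals were 6.41, 6.16 and 7.99 after 1 h and 7.78, 6.82 and 8.47 after 2 h. After 4 h they were 8.08, 8.73 and 9.10, and after 8 h 8.72, 7.61 and 5.58. With SDF-1α it was at the floor on 7 of 12 arrays, and the other 5 ranged from 4.90 to 6.12. All POL6326 arrays were above the floor, and only the array at 5.58 lay within the SDF-1α range. The difference was 2.76 (SE 0.40, adjusted p = 0.000146), and its size rests on the floor: with 1 common detection limit of 7.42 it was 0.59 and still passed. Control arrays 1 and 2 were at 6.59 and 7.60 and control array 3 at the floor. The difference passed at 2 h (2.95, SE 0.79, adjusted p = 0.0378) and 4 h (3.84, SE 0.79, adjusted p = 0.00624) but not at 1 h (2.45, adjusted p = 0.108) or 8 h (1.79, adjusted p = 0.432). The 2 h call was lost without any 1 of 7 arrays, with an adjusted p of up to 0.145, which was reached without POL6326 2 h array 3. It was also lost with the common detection limit (0.47, adjusted p = 0.313) and with quantile normalization (2.84, adjusted p = 0.0719). With each array's count of detected probes as a covariate the 4 h difference was 3.20 (adjusted p = 0.0993).

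miR-608 was above the floor on all 12 POL6326 arrays, from 6.19 to 8.51 with a median of 7.51. With SDF-1α it was at the floor on all 3 arrays at 1 h and on 1 at 4 h, and the other 8 ranged from 5.29 to 7.73. The difference over 4 times was 1.71 (SE 0.33, adjusted p = 0.00239), and without the 1 h arrays it was 1.17 with an adjusted p of 0.0663. With the common detection limit it was 0.32 and passed. For miR-662, 12 of 12 POL6326 arrays (5.99 to 7.99) and 8 of 12 SDF-1α arrays (up to 8.03) were above the floor, and the difference was 1.37 (SE 0.39, adjusted p = 0.0294). Its control arrays were at 7.80, 7.39 and 8.26, the last of these above every treated array. The call of miR-662 was lost without any 1 of 9 arrays, the highest adjusted p being 0.0612 without SDF-1α 1 h array 1. With the common detection limit its difference was 0.10 (adjusted p = 0.431).

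miR-590-5p and miR-556-5p were at the floor on most SDF-1α arrays, 9 and 10 of 12. With POL6326 miR-590-5p reached 7.15, 7.57 and 7.34 at 2 h, and 6.37 and 6.33 on 2 of the 3 arrays at 1 h. At 4 and 8 h it did not exceed 4.99. miR-556-5p, from the NOS1AP hairpin, read 7.03, 6.42 and 7.73 at 2 h with POL6326 and at most 5.01 at 4 and 8 h. Their differences over 4 times were 1.03 (SE 0.21, adjusted p = 0.00434) and 0.82 (SE 0.22, adjusted p = 0.0230). Each was positive at 3 of the 4 times, that of miR-590-5p being negative at 4 h and that of miR-556-5p at 8 h. The other strand of the NOS1AP hairpin, miR-556-3p, was above the floor on all 27 arrays and differed by 0.20 (SE 0.17, adjusted p = 0.465).

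miR-557 differed by 0.78 (SE 0.18, adjusted p = 0.00856), and of the single times it passed at 1 h only. At 1 h all 3 SDF-1α arrays had it at the floor, and POL6326 gave 7.11, 7.66 and 7.71. From 2 h on the SDF-1α values ranged from 6.78 to 8.58 and the POL6326 values from 6.30 to 8.20, and without the 1 h arrays the difference was 0.02 (adjusted p = 0.972).

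The other 3 rises were of members above the floor on all arrays, so no value at the floor enters them. miR-638, within DNM2, ranged from 9.12 to 9.94 with POL6326 (median 9.65) and from 8.03 to 9.56 with SDF-1α (median 8.96). It was 1.60-fold higher (log2 0.68, SE 0.15, adjusted p = 0.00548), with a positive difference at each of the 4 times. miR-636 was 1.57-fold higher (log2 0.65, SE 0.13, adjusted p = 0.00306), and its difference at 4 h was 1.32 (SE 0.26, adjusted p = 0.00429), from 10.93 ± 0.23 to 12.25 ± 0.22 (SD, n = 3 each). The controls of miR-636 were at 11.97, 11.71 and 10.98, all under the POL6326 values at 4 h. The lowest was within the SDF-1α range, and the other controls were above that range, which ended at 11.21. Over all times the median was 11.41 with POL6326 and 10.94 with SDF-1α, both under the control median of 11.71. miR-593* was 1.65-fold higher (log2 0.72, SE 0.20, adjusted p = 0.0265), whereas miR-593, read by another probe, differed by -0.19 (SE 0.14, adjusted p = 0.397). Without the 4 h arrays the differences of miR-636 and miR-593* were 0.42 and 0.60 and neither passed (adjusted p = 0.108 and 0.157). miR-593* also did not pass without the 1 h arrays (0.74, adjusted p = 0.0520) or with the covariate for detection (0.41, adjusted p = 0.233).

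Among the members that were lower with POL6326, miR-560 fell the furthest. Its SDF-1α values ran from 8.34 to 9.47 (median 9.12), and with POL6326 it gave 8.32, 8.08 and 8.13 after 1 h and 7.89, 7.81 and 7.95 after 2 h. After 4 h it gave 6.23, 7.80 and 8.12, and after 8 h 9.03, 8.85 and 9.20. The POL6326 arrays lay under all SDF-1α values up to 4 h and within their range at 8 h. The difference was -1.01 (SE 0.22, adjusted p = 0.00548), 2.02-fold lower. The control array 1, with 6.89, was also under the SDF-1α range. Without the 4 h arrays it was -0.72 (adjusted p = 0.108).

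miR-602 was 1.46-fold lower with POL6326 (log2 -0.54, SE 0.10, adjusted p = 0.00152). It read 9.31, 8.78 and 8.94 at 2 h with POL6326 against 10.30, 10.00 and 9.87 with SDF-1α, and at 8 h 9.99, 9.99 and 10.06 against 10.34, 9.70 and 10.15. The groups did not overlap at 2 h and overlapped at 8 h. The single-time differences were -1.05 at 2 h (SE 0.20, adjusted p = 0.00333), -0.67 at 4 h (SE 0.20, adjusted p = 0.0423) and -0.05 at 8 h. miR-565 was 1.67-fold lower (log2 -0.74, SE 0.19, adjusted p = 0.0162), with values of 10.57 to 12.70 with SDF-1α and 10.25 to 11.50 with POL6326. It did not pass without the 4 h arrays (-0.57, adjusted p = 0.146), without the 1 h arrays (-0.69, adjusted p = 0.0523) or with the covariate for detection (-0.48, adjusted p = 0.154). miR-634 was 1.18-fold lower (log2 -0.24, SE 0.08, adjusted p = 0.0462), from 12.31 ± 0.23 to 12.07 ± 0.20 (SD, n = 12 arrays each). That call was lost without any 1 of 18 arrays, with adjusted p-values up to 0.0844, which was reached without POL6326 4 h array 1.

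The last 2 lower members were at the floor on some of the arrays. miR-635 was at the floor on all 6 POL6326 arrays at 1 and 2 h, and on all 3 SDF-1α arrays at 1 h. With SDF-1α it read 6.22, 6.30 and 7.04 at 2 h, and at 8 h both treatments were above the floor, with 7.41, 7.41 and 6.07 against 6.63, 7.02 and 6.55. Its difference was -0.76 (SE 0.22, adjusted p = 0.0294), lost without any 1 of 4 arrays (SDF-1α 2 h array 3, SDF-1α 4 h array 1, SDF-1α 8 h array 2 and POL6326 4 h array 1), with an adjusted p of up to 0.0607. miR-652 was above the floor on 7 of 27 arrays, 3 of them the SDF-1α arrays at 8 h, and its difference was -0.20 (SE 0.06, adjusted p = 0.0331). It was lost without any 1 of 12 arrays, with an adjusted p of up to 0.0645, reached without POL6326 4 h array 1.

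Of the 15 calls, 10 remained whichever array was left out. The call of miR-593* was the only further one lost through 1 array alone, SDF-1α 4 h array 1 (adjusted p = 0.0511). miR-579, miR-590-5p, miR-602 and miR-638 remained called without any 1 array and under each alternative that could be run for them. For miR-590-5p these did not include the common detection limit, since it was not in that fit. No alternative left out the 2 h arrays, where its difference was 3.02, so its call was not tested without that time. When each array's count of detected probes was fitted as a covariate, 7 of the 15 remained, and 8 members were called in all. The calls lost were those of miR-556-5p, miR-557, miR-565, miR-593*, miR-634, miR-635, miR-652 and miR-662. The count of detected probes differs between the treatments, so the covariate can also take up part of a treatment difference.

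**Figure D4:**
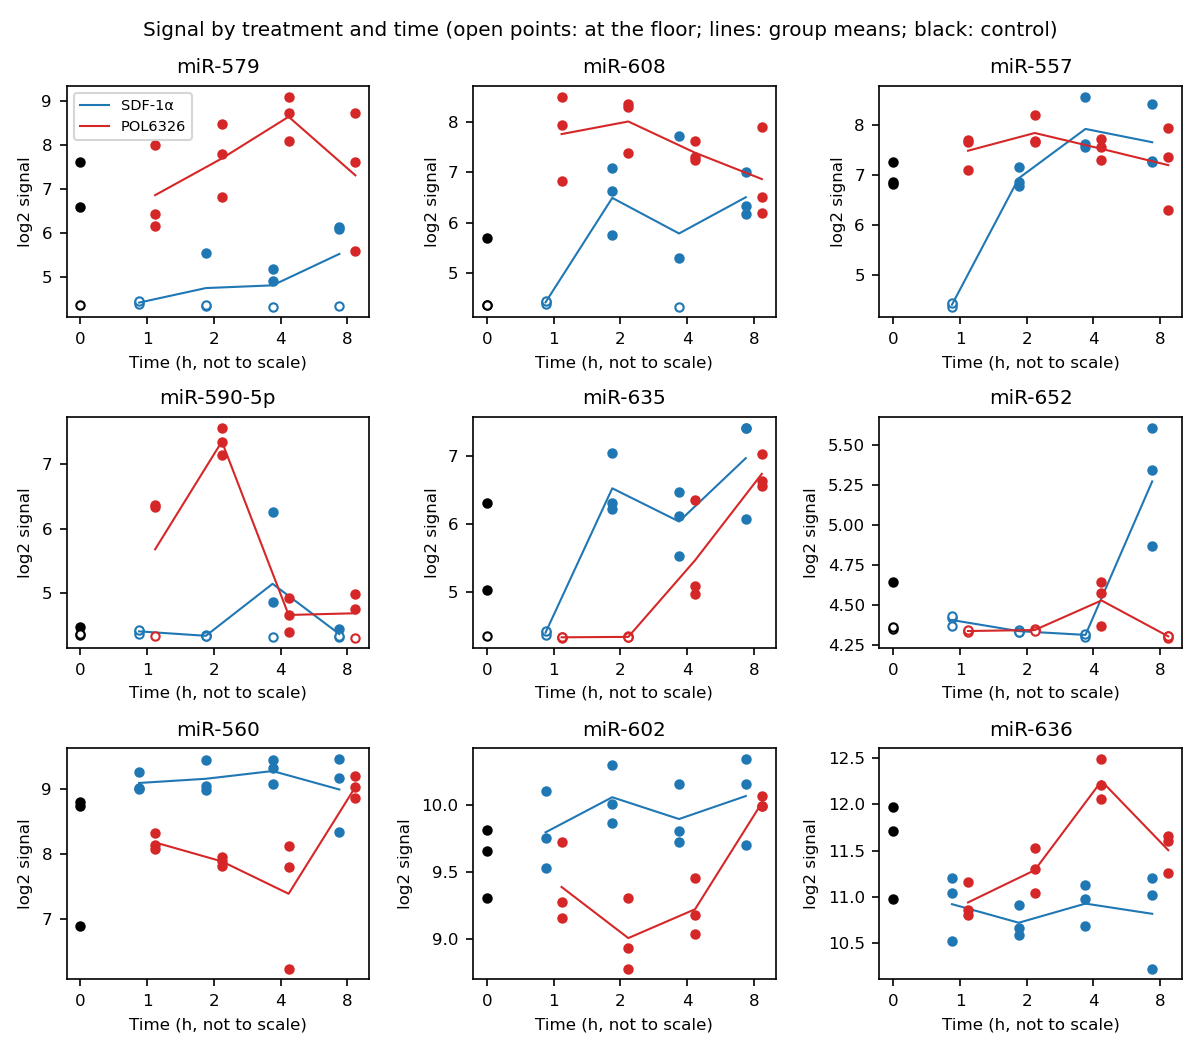
Log2 signal of 9 members at 0 h (control, black) and at 1, 2, 4 and 8 h with SDF-1α (blue) or POL6326 (red); each point is 1 array, open points are at the floor, lines join the means of 3 arrays and the time axis is not to scale. miR-557 is at the floor with SDF-1α at 1 h only, miR-590-5p peaks at 2 h with POL6326, and miR-560 and miR-602 are lower with POL6326 until 4 h and not at 8 h.

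At single times the calls rest on the model that shares the spread over all groups, since an exact permutation test of 3 arrays against 3 cannot go below 0.1. At 1 h 2 members were called, beside 3.49% of all probes, both with all 3 SDF-1α arrays at the floor. With POL6326 miR-608 was at least 1.52-fold higher (adjusted p = 0.00777) and miR-557 at least 1.26-fold higher (adjusted p = 1.49e-05). These bounds set the mean of the brighter group against the detection limit of the other, and the high limits of SDF-1α at 1 h keep them low. With 1 common detection limit neither passed (adjusted p = 0.163 and 0.747).

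At 2 h 7 members were called, beside 4.13% of all probes. Higher with POL6326 were 3, with a background of 2.07%: miR-579, miR-590-5p, at least 4.35-fold (adjusted p = 0.000216), and miR-556-5p, at least 3.55-fold (adjusted p = 0.000763). Lower were 4, also with a background of 2.07%. miR-635 was at least 2.27-fold lower (adjusted p = 0.00448), miR-548d-3p at least 1.51-fold lower (adjusted p = 0.00200) and miR-629 at least 1.28-fold lower (adjusted p = 0.0468), each at the floor on all 3 POL6326 arrays, and the fourth was miR-602. With only these 2 groups in the fit, miR-548d-3p (adjusted p = 0.0952), miR-602 (0.0804) and miR-579 (0.0995) did not pass. The call of miR-629 was lost without any 1 of 19 arrays, with an adjusted p of up to 0.141 without SDF-1α 2 h array 2. The probe of miR-629* was above the floor on all arrays and did not pass in the mean of 4 times (0.12, SE 0.20, adjusted p = 0.742).

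At 4 h 16 members were called, beside 9.82% of all probes, 8 higher with a background of 3.75% and 8 lower with a background of 6.07%. miR-551b*, from a hairpin conserved among mammals, read 8.04, 8.17 and 7.79 with POL6326 while the 3 SDF-1α arrays were at the floor, which makes it at least 9.06-fold higher (adjusted p = 0.00403). Elsewhere miR-551b* was above the floor only on control array 1 (7.23), SDF-1α 8 h array 1 (6.51) and POL6326 8 h array 1 (7.12). The arrays with miR-551b* above the floor were also those with the most probes above the floor. With the covariate for detection its difference at 4 h was 2.08 and did not pass (adjusted p = 0.0664). miR-551b, read by its own probe, differed by 2.60 at 4 h (adjusted p = 0.0804), and it was at the floor on all 6 POL6326 arrays at 1 and 2 h. miR-548c-3p read 7.14, 7.69 and 7.96 with POL6326 at 4 h and was at least 6.86-fold higher (adjusted p = 0.0236). That call was lost without any 1 of the 6 arrays compared (adjusted p up to 0.0579, without POL6326 4 h array 1). With the common detection limit the difference of miR-548c-3p was 0.27 (adjusted p = 0.206), and with the covariate for detection 3.04 (adjusted p = 0.187). miR-563 was at least 1.72-fold higher (adjusted p = 0.0117), lost without POL6326 4 h array 2 (adjusted p = 0.0537), and miR-622 at least 1.03-fold higher (adjusted p = 0.0411). miR-592 and miR-600 were called too, but their POL6326 means lay under the SDF-1α detection limits, so no fold is given. miR-579 and miR-636 completed the 8.

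The 8 lower members at 4 h included 6 that were above the floor on all arrays. miR-560 was 3.71-fold lower (log2 -1.89, SE 0.44, adjusted p = 0.0121). Without POL6326 4 h array 1 its difference was -1.32 (adjusted p = 0.0749). miR-663 read 8.34, 9.09 and 9.10 with POL6326 against 10.14, 10.00 and 10.21 with SDF-1α, 2.42-fold lower (log2 -1.28, SE 0.27, adjusted p = 0.00624). miR-565 was 2.35-fold, miR-602 1.59-fold, miR-615-3p 1.55-fold and miR-634 1.41-fold lower. miR-615 lies in the HOXC gene cluster, within the spans of HOXC4 and HOXC5. At the floor on some of the 27 arrays were miR-561, which fell from 6.29 ± 0.47 to 4.51 ± 0.18 (SD, n = 3 each, adjusted p = 0.0143), and miR-642, at least 1.36-fold lower with 2 of 3 SDF-1α arrays above the floor (adjusted p = 0.0108). The calls of miR-565 and miR-602 at 4 h were lost without any 1 of 11 and 9 arrays, with adjusted p-values up to 0.173 (without POL6326 4 h array 1) and 0.159 (without SDF-1α 4 h array 1), and that of miR-561 without 2 arrays (up to 0.0609, without POL6326 4 h array 1). Without SDF-1α 4 h array 1 6 members were called at 4 h, without SDF-1α 4 h array 2 10, and without POL6326 4 h array 1 7. With only the groups compared in the fit, miR-560 (adjusted p = 0.124) and miR-602 (0.0889) did not pass at 4 h. With median centring 6 members were higher and 45 lower at 4 h, beside 41.1% of all probes called, where the median of all probes moved from -0.04 to -0.34, and 1 was called when the covariate for detection was fitted. With that covariate miR-560 differed by -0.74 (adjusted p = 0.140), miR-663 by -0.58 (0.0618) and miR-565 by -0.65 (0.494). miR-561 then differed by -1.69 (0.120) and miR-602, further from 0 than before, by -0.85 (0.0854).

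At 8 h 1 member was called, beside 1.03% of all probes. miR-652, a conserved miRNA within TMEM164, read 4.87, 5.61 and 5.34 with SDF-1α and was at the floor on all 3 POL6326 arrays, at least 1.50-fold lower (adjusted p = 9.74e-05). With only these 2 groups in the fit the adjusted p was 0.377. With median centring 1 member was higher and 31 lower at 8 h, beside 26.9% of all probes called.

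Against the control, which was taken at 0 h alone, the treatment cannot be told apart from the hours in culture, and both comparisons share the same 3 control arrays. POL6326 differed from control in 2 members, beside 3.75% of all probes. miR-608 was higher by 2.71 (SE 0.52, adjusted p = 0.00437), its controls being at 5.70 on array 1 and at the floor on arrays 2 and 3. With the common detection limit this difference was 0.34 (adjusted p = 0.210). miR-603 was lower by 1.89 (log2 difference -1.89, SE 0.47, adjusted p = 0.0252), from 6.98, 7.23 and 7.48 in the controls to between the floor and 6.34 with POL6326. That call was lost without either of 2 arrays, with an adjusted p of up to 0.105 without control array 3. Without the 1 h arrays the difference was -1.56 and did not pass (adjusted p = 0.0780). With SDF-1α miR-603 also lay under every control, between the floor and 6.67, though it was not called, so the fall is not particular to POL6326. SDF-1α differed from control in 1 member, miR-585 (-1.04, SE 0.27, adjusted p = 0.0470), beside 2.84% of all probes. It rests on control arrays 1 and 2, at 5.02 and 6.74, since no value of control array 3 or of the 12 SDF-1α arrays exceeded the floor. Without control array 2 the difference was -0.36 (adjusted p = 0.160), and the call was lost without any 1 of 23 arrays. With POL6326 miR-585 was likewise at the floor on 8 of 12 arrays and reached at most 4.79.

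Across all 9 groups the F-test called 28 members, beside 24.5% of all probes, and 10 of them were above the floor on all arrays. The smallest adjusted p-values were those of miR-557 (6.93e-05), miR-652 (0.000227), miR-551a (0.000290), miR-635 (0.000290) and miR-590-5p (0.000557). That of miR-557 was 0.418 with the common detection limit. The difference between POL6326 and SDF-1α changed over time in 5 members, beside 3.88% of all probes. These were miR-557, called at 1 h, miR-590-5p, miR-556-5p and miR-548d-3p, called at 2 h, and miR-652, called at 8 h. Their adjusted p-values ranged from 0.000687 to 0.0217, and that of miR-556-5p was 0.0525 without POL6326 2 h array 3.

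The array held 4 probes of the miR-548 family. miR-548a-3p was above the floor on all 27 arrays, with a mean of 8.42, and the others on 9 (miR-548b-3p), 12 (miR-548c-3p) and 11 (miR-548d-3p). None passed in the mean of 4 times, where the median difference of the 4 was 0.24 beside -0.03 for all probes. Their single-time calls went opposite ways, miR-548c-3p higher at 4 h and miR-548d-3p lower at 2 h with POL6326. With SDF-1α at 2 h miR-548d-3p read 5.29, 6.38 and 6.12, and with POL6326 5.21 and 5.75 on 2 arrays at 1 h. miR-548c-3p was also at 6.37 and 8.25 on control arrays 1 and 2. miR-603, called lower than control, ends in the same 10 letters as miR-548c-3p, shown in capitals, and the letters caa just before them are shared too.
miR-548c-3p: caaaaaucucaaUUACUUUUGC
miR-603: cacacacugcaaUUACUUUUGC

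The end of 10 letters in capitals occurred in 9 of the 2351 human mature sequences of the table (0.383%), 8 of which were named miR-548. The seeds of the pair differ. miR-548c-3p lies at chr12:64622569-64622590 on the plus strand within RASSF3, and miR-603 at chr10:24275745-24275766 on the plus strand within KIAA1217. Among the 12 probes of the conserved miRNAs, 2 were above the floor on all arrays (miR-574-3p and miR-615-3p), and in the mean of 4 times 1 was higher (miR-590-5p), 1 lower (miR-652) and the median difference was 0.02. In the other 107 probes 8 were higher and 5 lower with a median of -0.03, where 5.43% of all probes were higher and 4.39% lower.

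Probes for the hairpin precursors gave a second reading of the same names. For 68 members a precursor probe of that name was on the array, and 17 of the 68 precursors were above the floor on all arrays, as were 17 of the mature probes, 8 names being so in both. miR-618 and miR-596 were above the floor on all 27 arrays as mature probes while their precursor probes were on 0. In the comparison of POL6326 with SDF-1α 10 of the 68 mature probes and 9 of the 68 precursor probes were called, where 9.82% of all probes were, and 3 names were called in both, each in the same direction. The precursor of miR-560 differed by -0.57 (adjusted p = 0.0153) and that of miR-565 by -0.70 (adjusted p = 0.0401), as their mature probes did. The precursor of miR-638 differed by 1.96 (adjusted p = 0.000208). This precursor exceeded the floor on 11 of 12 POL6326 arrays (up to 8.50) and on 4 of 12 SDF-1α arrays (up to 6.56). The precursor of miR-600 differed by 2.08 (adjusted p = 0.00143) while the mature probe, above the floor on 4 arrays, differed by 0.16. The miR-600 precursor itself exceeded the floor on 11 of 12 POL6326 arrays but on only 3 of 12 SDF-1α arrays, so the size of its difference rests on the floor. The precursor probes of miR-557 and miR-608 were above the floor on 0 arrays. At 4 h miR-560, miR-565 and miR-663 were lower in both probes. A precursor contains the sequence of the mature strand, so the readings of 1 name are not independent.

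**Figure D5:**
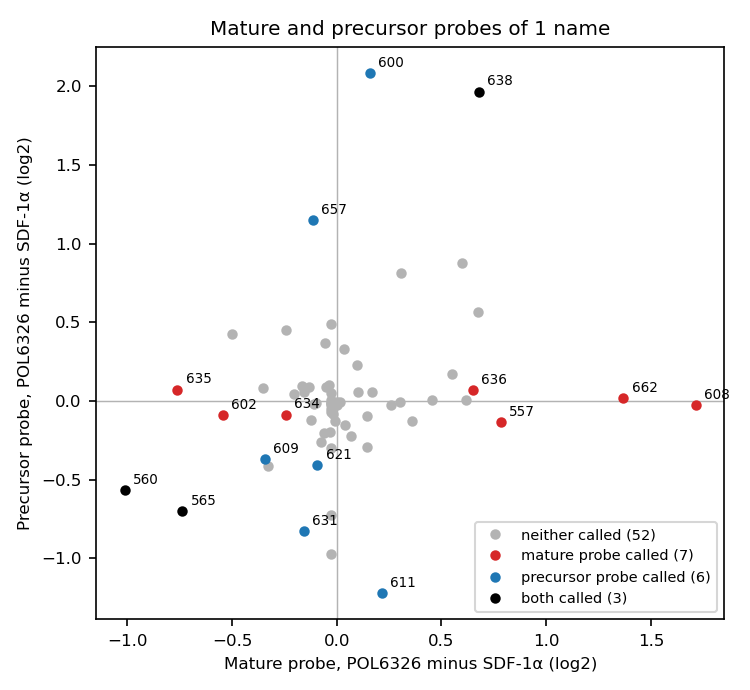
Log2 difference between POL6326 and SDF-1α over the mean of 4 times for the mature probe (horizontal) and the precursor probe (vertical) of the 68 names that had both. In 7 names the mature probe alone was called (red), in 6 the precursor alone (blue) and in 3 both (black: miR-560, miR-565 and miR-638).

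In 9 names the array held 2 member probes. Besides the pairs named above, miR-582-3p and miR-582-5p were above the floor on 1 array each and both miR-559 probes on 0. miR-615-5p was above the floor on 13 arrays and miR-615-3p on 27, and miR-616 on 6 and miR-616* on 24. miR-625* was above the floor on 27 arrays and a second probe of that name, marked Plus/Minus, on 6. The meaning of that mark is not given in the sources used here. In none of these pairs were both probes called in the mean of 4 times.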

How the data were processed

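The authors deposited 1 table of log2 signals for the 27 arrays, with 784 probes, 774 of them human. Per the labels' protocols, total RNA was copied to DNA from a random primer carrying biotin, then hybridised. The normalization is not given in the sources used here. Values were used as deposited. The floor was an array's most frequent value (tolerance 1e-04), and the number of probes above it (210 to 593) gives the depth. The number of arrays limits the precision.

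A model with 1 mean per group was fitted to all 27 arrays and all 774 probes with limma 3.58.1 in R 4.3.3 (eBayes, prior degrees of freedom 0.90). Tests are two-sided, with Benjamini-Hochberg adjusted p-values over 774 probes and 0.05 as threshold. Where 1 group was wholly at the floor, the fold is a bound: the brighter mean was set against the dim group's average of, per array, the higher of the detection limit and the probe's own value. The fitting script was tested on simulated data. Python 3.11.15, pandas 2.3.3, scipy 1.17.1 and matplotlib 3.10.9 made the summaries and figures.

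The members, lists and tests were chosen with earlier results of these data known. Named members were those past the threshold (up to 10 rises and 10 falls in the means, 5 and 5 at single times), the 5 smallest p-values in each F-test, the 10 brightest, the miR-548 family, names with over 1 mature probe, conserved miRNAs and names whose precursor was also called. miR-613, and miR-592, miR-600, miR-622, miR-634, miR-642 and miR-615-3p at 4 h, and miR-618 and miR-596 for their precursors, were named beyond it. Between arrays with the same replicate number the deviations from the group means had median correlations of -0.02, 0.04 and 0.05, so no block was used. Single pairs reached 0.72, 0.45 and 0.58, and the lowest were -0.21, -0.19 and -0.28.

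Alternatives were median centring, quantile normalization, dropping probes that over 50% of arrays had at the floor, 1 common detection limit, raising values under the floor to it, a replicate block, a trend and robust prior, only the groups compared, the count of detected probes as a covariate, the means without the 1 h or 4 h arrays, only members named in RefSeq, and leaving out each array in turn.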

Additional observations from a re-analysis of the deposited data

Results flagged for a closer look

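In 5 members the difference between POL6326 and SDF-1α changed over the 4 times by the treatment by time F-test in limma. The adjusted p was 0.000687 for miR-557, where the difference was 3.08 at 1 h and -0.46 at 8 h, and 0.000989 for miR-652, with 0.21 at 4 h and -0.97 at 8 h. It was 0.00863 for miR-548d-3p (-1.58 at 2 h), 0.00962 for miR-590-5p (3.02 at 2 h and -0.48 at 4 h) and 0.0217 for miR-556-5p (2.72 at 2 h and -0.52 at 8 h). Each involves arrays at the floor. Without the 1 h arrays the adjusted p of miR-557 was 0.176 and with 1 common detection limit 0.306, and without POL6326 2 h array 3 that of miR-556-5p was 0.0525. The cause of these differences was not tested.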

How the results depend on the processing

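No result reversed. For POL6326 against SDF-1α over 4 times, 15 members were called, and 53 with median centring, 8 with the covariate, 9 without the 4 h arrays and 9 among RefSeq names. At 4 h the 16 became 51 with centring, 10 without probes mostly at the floor, 10 with only the groups compared, 1 with the covariate and 8 among RefSeq names. At 1 h the 2 became 4 without probes mostly at the floor, 0 with the common limit, 4 with only the groups compared and 5 with the covariate. At 2 h the 7 became 3 with the common limit and 4 among RefSeq names. At 8 h the 1 became 32 with centring and 0 without probes mostly at the floor, with only the groups compared or among RefSeq names. Against control, the 2 members of POL6326 became 4 with centring, 4 with quantile normalization, 0 with the common limit, 5 with the trend and robust prior, 8 with the covariate, 1 without the 1 h arrays and 5 without the 4 h arrays. The 1 member of SDF-1α became 0 with centring, only the groups compared or RefSeq names, 5 with the common limit, and 2 with quantile normalization, without probes mostly at the floor, with the covariate, without the 4 h arrays or with the replicate block. The F-test over 9 groups went from 28 to 62 with centring, 54 with values under the floor raised and 14 among RefSeq names. The interaction went from 5 to 38 with centring, 3 without probes mostly at the floor, 10 with the covariate and 3 among RefSeq names. Fewer members are tested among RefSeq names and without floor probes. Otherwise the cause was not tested.

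Leaving out 1 array at a time gave 11 to 17 calls over 4 times, 2 to 5 at 1 h, 5 to 7 at 2 h, 6 to 18 at 4 h, 1 to 2 at 8 h, 2 to 5 and 0 to 9 for POL6326 and SDF-1α against control, 19 to 48 over 9 groups and 5 to 7 for the interaction. The widest moves came without control array 1 (48 over 9 groups, 5 for POL6326 and 0 for SDF-1α against control), control array 3 (5 and 9 against control) SDF-1α 8 h arrays 1 and 3 (48 and 47 over 9 groups) and SDF-1α 1 h array 2 (45 over 9 groups). At 1 h the count was 4 without SDF-1α array 1 and 5 without POL6326 array 1, and at 8 h it was 2 without SDF-1α array 2. The count of SDF-1α against control was 0 without any 1 of 18 arrays. The replicate block gave 16 calls over 4 times, 2, 5, 18 and 1 at 1, 2, 4 and 8 h, 3 and 2 against control, 26 over 9 groups and 7 for the interaction. Under it miR-579 (adjusted p = 0.0580) and miR-629 (0.0612) lost their calls at 2 h.

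Detection limits the depth: with SDF-1α at 1 h a signal under 6.88 could not be seen, so a member missing there is not shown to be absent. The SE and p-value of members at the floor can be too small, since tied values vary little.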

Other observations

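The probe of miR-613 shares its seed with miR-1-3p and miR-206, the muscle miRNAs, and was above the floor on all 27 arrays with a mean of 7.17. miR-206 was above it on all 27 (6.57) and miR-1 on 9. miR-559 shares its seed with 11 other human mature sequences, all named miR-548, and neither of its probes was above the floor on any array. miR-551a shares its seed with miR-551b-3p and was above the floor on all 27 arrays.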
